A study of Mus musculus with 12 samples.

Results

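The change in gene expression between the embryonic stages E15.5 and E16.5, given in days, was measured in eyelids of Tabby mouse embryos, which lack a working Eda gene. The comparison rests on the 4 arrays whose titles name Tabby at these stages, 2 at E15.5 and 2 at E16.5, out of 12 arrays in all. The labels give the strain as C57BL6/J and the genotype as Tabby mutant, name no allele, and give neither sex nor the number of embryos behind an RNA sample. Wild-type eyelids of the same strain and stages, and both genotypes at E14.5, were hybridised with 2 arrays each. Eyelids were microdissected, and the treatment protocol in the labels describes footpads at later ages instead, so the stage and tissue follow each sample's own title and characteristics. On every array the eyelid RNA carried the dye Cy3 and a pool of cell line and embryonic stem cell RNA, the common reference, carried Cy5. Values are log2 ratios of eyelid over reference, so a value of 0 means equal signal from both. The 2 arrays of a group are labelled as biological replicates.

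The array has 42006 probes of 60 bases, and 32318 of them met the rule of being well above background in the eyelid channel on both arrays of at least 1 of the 2 Tabby groups; 32317 were tested. Between 76.1% and 79.1% of probes were well above background on the 4 Tabby arrays, and no eyelid spot was saturated. The 3 slides each held the 4 arrays of 1 stage, so that the slide cannot be told apart from the stage anywhere below. The second E15.5 Tabby array also lagged the first in developmental progress, as described with the replicates. The probes carry identifiers and sequences but no gene symbols, and 0 could be tied to a gene by the tables used here. The eyelid label could therefore not be set against marker genes, nor the Tabby label against Eda, and results are given by probe.

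Eda encodes ectodysplasin, a membrane-anchored ligand of the tumour necrosis factor family. It binds the receptor EDAR on epithelial cells, which acts through the adaptor EDARADD on the transcription factor NF-κB. The pathway is known for the placodes from which hair, teeth, sweat glands and the oil-producing Meibomian glands of the eyelid rim develop, and Tabby mice are known to lack Meibomian glands. In the same days of wild-type development the eyelids grow over the eye and fuse, and their epidermis stratifies.

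The probes on which the stage change turns are shown first, since their sequence is the only identity they have. Each is written 5′ to 3′ as on the array, and capitals mark AATAAA, the hexamer that directs cleavage and polyadenylation at the end of most messenger RNAs. The first pair rose most among probes measured at both stages, the second pair rose from below background, and the third pair fell most. The last line holds the probe with the largest difference of all, singled out after its values were seen.
Z00040994-1: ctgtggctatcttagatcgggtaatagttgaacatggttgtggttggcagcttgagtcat
Z00070340-1: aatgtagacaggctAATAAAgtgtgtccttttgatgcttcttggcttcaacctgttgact
Z00025655-1: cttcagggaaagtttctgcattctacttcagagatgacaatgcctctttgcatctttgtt
Z00049767-1: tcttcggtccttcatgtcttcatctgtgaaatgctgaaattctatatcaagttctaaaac
Z00047077-1: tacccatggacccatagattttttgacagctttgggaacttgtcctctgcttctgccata
Z00040042-1: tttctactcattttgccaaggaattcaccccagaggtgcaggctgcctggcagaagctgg
Z00040631-1: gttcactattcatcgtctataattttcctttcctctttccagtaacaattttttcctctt

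Tabby eyelids changed widely within the day, and the large changes were almost all increases. Of 32317 probes, 2587 (8.01%) were higher and 1881 (5.82%) lower at E16.5, in a limma fit of 6 group means to all 12 arrays with Benjamini-Hochberg adjustment over all probes and a call at an adjusted p under 0.05. Together these 4468 calls made up 13.8% of probes. At 2-fold or more, 452 probes (1.4%) rose and 10 (0.0309%) fell. At 4-fold or more there were 85 risers and 1 faller, at 8-fold or more 29 risers and 1 faller, and 7 probes rose 16-fold or more. The change of a typical probe was small: the middle of the distribution lay at -0.01 on the log2 scale, its 1st percentile at -0.50 and its 99th at 1.17. On both sides of the threshold, Z00078122-1 (-0.40, limma adjusted p = 0.04999) was called and Z00060384-1 (0.19, limma adjusted p = 0.0501) was not. The E15.5 and E16.5 arrays did not overlap at 18168 probes (56.2%). Groups of 2 arrays can fail to overlap without a change between stages, and this share was not tested. Every one of the 452 risers was among them, as were 2586 of the 2587 higher probes, so this follows from the call. Of the 452 risers 420 were well above background on all 4 arrays.

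The balance of calls in each direction moved with the normalization. Higher probes made up 57.9% of the calls, but 45.7% with the scanner software's own ratio, 45.7% with the authors' values and 46.2% with the eyelid channel alone. They made up 87.6% with median centring in place of an intensity-dependent (loess) correction, and 75.7% with a further scaling between arrays. The count of 10 probes that fell 2-fold or more also depended on this, with 70 under the scanner software's ratio and 106 with the eyelid channel alone. Increases of 2-fold or more outnumbered such decreases under all 24 alternative settings tried, with 562 against 70 for that ratio and 842 against 106 for the eyelid channel.

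**Figure D1:**
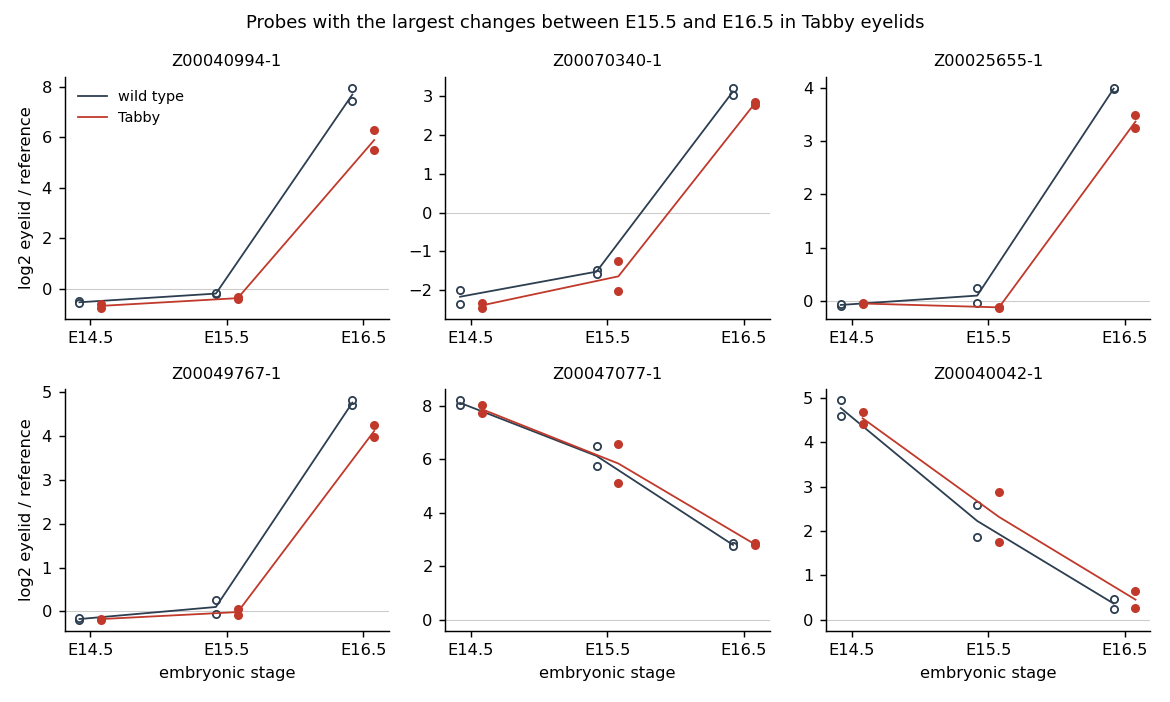
Log2 ratio of eyelid over reference (vertical axis) by embryonic stage (horizontal axis) at 6 probes; each point is 1 array, open for wild type and filled for Tabby, and lines join group means of 2 arrays. The first 4 panels rise after E15.5 in both genotypes and the last 2 fall across all stages; Z00040994-1 reached 5.48 and 6.29 in Tabby at E16.5 and 7.95 and 7.44 in wild type.

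The 2 E15.5 Tabby arrays differed in how far they had moved along the developmental change. Stage progress was measured by projecting each array on the wild-type change over the probes tested, with the mean wild-type E14.5 array at 0 and the mean wild-type E16.5 array at 1. Replicate 1 of E15.5 Tabby lay at 0.593 and replicate 2 at 0.422, a mean of 0.508 ± 0.121 (SD, n = 2). The E16.5 Tabby arrays lay at 0.957 and 0.913, a mean of 0.935 ± 0.031 (SD, n = 2). The gap between the E15.5 Tabby replicates, 0.171, exceeded that between the wild-type E15.5 arrays, at 0.468 and 0.574, in which replicate 2 was the further one. The Tabby groups stood 0.427 apart and the wild-type groups 0.479. The wild-type E16.5 arrays define the axis themselves, which favours a longer wild-type distance, so no difference between genotypes is read from these values.

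**Figure D2:**
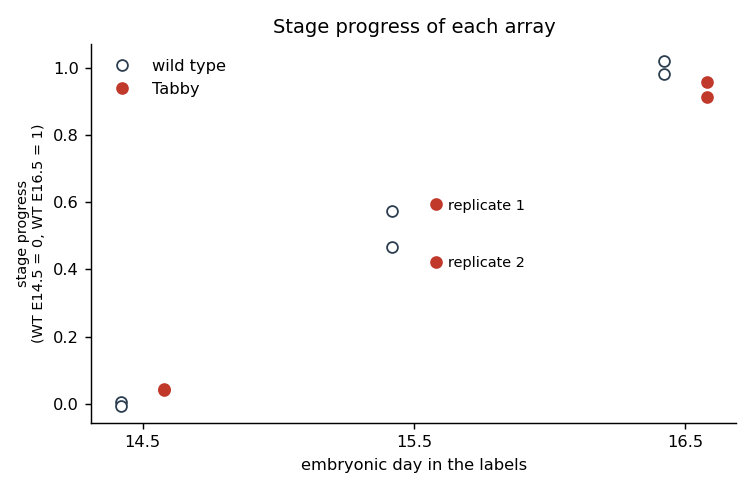
Stage progress of each array (vertical axis, wild-type E14.5 at 0 and wild-type E16.5 at 1, no unit) by embryonic day in the labels (horizontal axis); each point is 1 array, open for wild type and filled for Tabby. At E15.5 the Tabby replicates lie at 0.593 and 0.422, outside the range of the wild-type pair.

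The lag ran through the risers. Replicate 2 read lower than replicate 1 at E15.5 in 420 of the 452 risers (92.9%), against 49.3% of all probes, with a median gap of 0.40. The gap exceeded 1 on the log2 scale in 24 of the 452, 15 of them among the 85 that rose 4-fold or more, whereas the E16.5 Tabby arrays differed that much at 3 of the 452. The median rise of the 452 was 1.33 (quartiles 1.13 and 1.79) from both E15.5 arrays, 1.13 from replicate 1 alone and 1.56 from replicate 2 alone. These were the probes that the same arrays had chosen, so the medians describe them and test nothing. The plain agreement between replicates was high all the same, at r = 0.989 across probes for each Tabby group, and 68 probes differed by more than 2-fold between the E15.5 arrays.

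Without replicate 2 of E15.5 Tabby, the counts fell to 792 higher (2.45%) and 193 lower (0.597%), with 231 and 8 at 2-fold or more. Of the 4468 calls 961 (21.5%) remained, and of the 452 risers 310 were still called and 302 still rose 2-fold or more. Without replicate 1 the counts were 2216 and 1345, with 566 and 16 at 2-fold or more, and 432 of the 452 were still called. Both fits leave E15.5 Tabby with a single array that is assumed to vary like the other groups. Counts also fell by over 1.5 times without E16.5 Tabby replicate 1 (1475 and 1210) or replicate 2 (1660 and 992, with 22 fallers at 2-fold or more), and the lower calls fell to 1147 without either wild-type E14.5 array, which enter only through the shared spread.

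**Figure D3:**
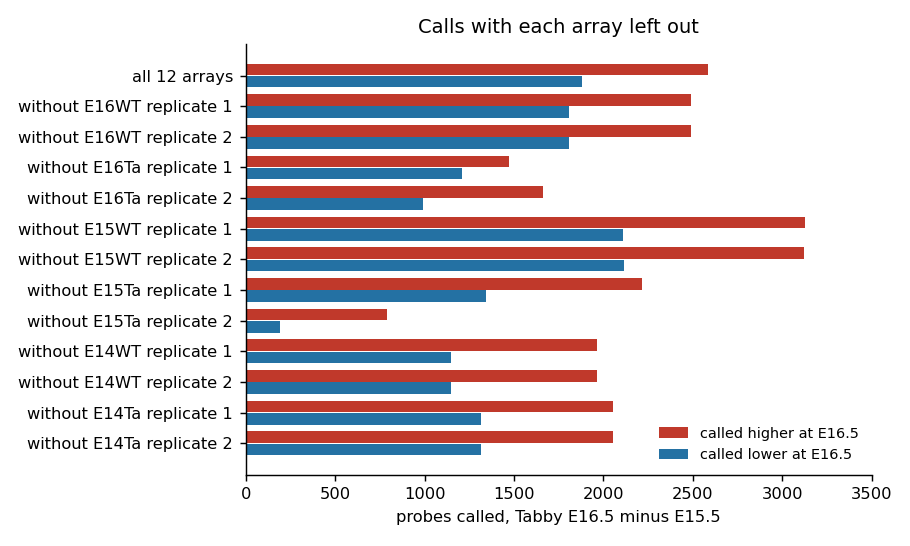
Number of probes called higher and lower at E16.5 in Tabby eyelids (horizontal axis) with all 12 arrays and with each array left out (vertical axis). The shortest pair of bars, 792 and 193, belongs to the fit without E15.5 Tabby replicate 2.

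The probe with the largest difference, Z00040631-1, read 0.66 and -0.16 on the E15.5 Tabby arrays and 6.84 and 6.93 on the E16.5 arrays. It rose by 6.63 on the log2 scale (SE 0.238, limma adjusted p = 2.68e-06), but was above background on only 1 of the 2 E15.5 arrays, so the size of the rise is uncertain. Wild-type eyelids rose by 6.73.

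Of the probes measured at both stages, the 10 with the largest increases rose by 3.48 to 6.27, with a median of 3.88 and limma adjusted p values up to 0.00145. All 10 were called in wild type as well, with increases of 3.73 to 7.89. The rise of Z00054289-1, 4.13 here, was 0.83 and not called with processed signals, the scanner software's ratio or the authors' values (limma adjusted p = 0.38 with the last of these), and its reference channel rose by 6.21. Z00040994-1 read -0.43 and -0.33 at E15.5, then 5.48 and 6.29 at E16.5. Both E16.5 arrays lay far above both E15.5 arrays, a difference of 6.27 (SE 0.237, limma adjusted p = 3.21e-06). The level at E14.5 had been -0.69, so nearly all of the rise came after E15.5. Z00070340-1 read -1.25 and -2.03 at E15.5, then 2.76 and 2.86 at E16.5. The E15.5 arrays were the uneven pair, with the lagging replicate lower, and the difference was 4.45 (SE 0.218, limma adjusted p = 1.50e-05). Without that replicate it was 4.07 and still called (limma adjusted p = 2.52e-05).

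Across the 452 risers, the median Tabby level was -0.19 at E14.5, 0.42 at E15.5 and 2.07 at E16.5. Over the 29 that rose 8-fold or more it was -0.05, 0.18 and 4.03. Wild-type medians for the same 29 probes were -0.04, 0.20 and 4.65. The members differed in this: of the 10 largest measured risers, 4 had moved by under 0.5 between E14.5 and E15.5, while Z00022762-1 had already risen by 2.56 (limma adjusted p = 2.96e-04). Since these probes were chosen for their E15.5 to E16.5 change, the shape is a description. For the earlier interval, E15.5 minus E14.5 in Tabby gave 2408 probes higher (7.45%) and 1597 lower (4.94%); it shares the E15.5 arrays, whose error enters both intervals with opposite signs.

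Some probes came above background only at E16.5. There were 164 probes that were not well above background on either E15.5 Tabby array and were on both at E16.5, and 50 of them were called higher, against 8.01% of all probes, 41 of the 50 also in wild type. These probes entered the test only through the stage at which they were high, so nothing is read from that count. For such probes the fold is a lower bound, set by each array's dimmest detectable signal in the eyelid channel after loess and between-array scaling of the single channels, and open to dye bias because no dyes were swapped. The bound reached 2-fold in 15 of the 50, 4-fold in 9 and 10-fold in 5. Z00025655-1 read -0.12 and -0.13 at E15.5, then 3.25 and 3.48 at E16.5. Its ratio rose by 3.49 (SE 0.0984, limma adjusted p = 4.72e-07), which is 11.2-fold. The bound on its eyelid signal alone was at least 50.7-fold, at spots where the reference channel rose by 6.20 on the log2 scale, so it is no bound on the ratio. Z00049767-1 read -0.09 and 0.05 at E15.5, then 3.98 and 4.26 at E16.5. It rose by 4.14 (SE 0.116, limma adjusted p = 4.72e-07), which is 17.6-fold, against at least 48.7-fold in the eyelid signal and a rise of 5.06 in the reference. Both also read near 0 at E14.5 in Tabby (-0.05 and -0.18), and wild type rose by 3.89 and 4.67. In the opposite direction 226 probes were above background at E15.5 and on neither E16.5 array. Of these 2 were called lower, against 5.82% of all probes, with bounds of 1.19-fold at most.

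The reference channel moved with the largest increases, although the labels give the same reference RNA for every array. After the Feature Extraction processing its change between the stages had an SD of 0.257 over all probes, against 0.510 in the eyelid channel. Its median change was 0.21 in the 452 risers, 0.79 in the 85 of 4-fold or more and 2.00 in the 29 of 8-fold or more, against -0.02 over all probes. The reference was 2-fold or more higher on the E16.5 arrays at 95 of the 452 risers, out of 247 such probes in all. The wild-type arrays, on the same slides, showed a median reference change of 2.91 at those 29 probes. For Z00025655-1 the eyelid channel rose by 10.63 and the reference by 6.20, and for Z00049767-1 by 10.51 and 5.06. For Z00040994-1 the reference rose by only 0.37 against 8.12 in the eyelid channel. The ratio change was smaller than the eyelid channel change at the steepest risers, with channel medians of 1.86, 4.21 and 5.49 in the 3 groups against ratio medians of 1.33, 2.69 and 3.49. The parts of the reference channel and of the offset in the background correction, which draws ratios of dim spots towards 0, were not tested.

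Large decreases were few. The 10 probes that fell 2-fold or more went down by 1.01 to 3.02, with a median of -1.47 and limma adjusted p values up to 0.045, and all 10 were above background on all 4 arrays. Z00047077-1 read 5.11 and 6.58 at E15.5, then 2.78 and 2.87 at E16.5. It dropped by 3.02 (SE 0.407, limma adjusted p = 0.00312), and dropped by 2.28 without the lagging replicate, which was the higher of the pair (limma adjusted p = 0.00555). At E14.5 it had stood at 8.02 and 7.73, so it was falling on both days. Z00040042-1 read 1.76 and 2.88 at E15.5, then 0.26 and 0.65 at E16.5. It dropped by 1.86 (SE 0.354, limma adjusted p = 0.0117) after 4.68 and 4.40 at E14.5, and its call was lost without the lagging replicate (-1.30, limma adjusted p = 0.0686). Most of the 10 were no longer called without that array, in a fit that leaves a single E15.5 Tabby array. Their median change was then -1.26, against -1.54 without replicate 1 of E15.5 Tabby.

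Only 3 of the 10 were called lower in wild type, where their changes ran from -3.33 to 0.78. The highest of these, at Z00062307-1, came from uneven wild-type E16.5 arrays that read 1.59 and 0.06. In stage order, the median Tabby levels of the 10 were 1.1, 1.51 and 0.18, and the wild-type medians were 0.78, 0.26 and 0.43. In 5 of the 10 the Tabby level moved by under 0.5 between E14.5 and E15.5. The genotypes' changes were not shown to differ at any of them, with limma adjusted p values of 0.481 or more for the interaction of genotype and stage.

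To see where the Tabby change departed from normal development, it was set beside the wild-type change from the same slides. In wild type 2848 probes were higher (8.81%) and 1626 lower (5.03%), with 591 (1.83%) higher by 2-fold or more. Of the 452 Tabby risers, 445 had a positive change in wild type and 433 were called higher there, 397 of them by 2-fold or more. Of the 1881 probes lower in Tabby, 870 were called lower in wild type, and of all 2587 higher probes 1 was called lower there. A difference between slides would enter both genotypes alike, so the likeness has no independent weight.

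**Figure D4:**
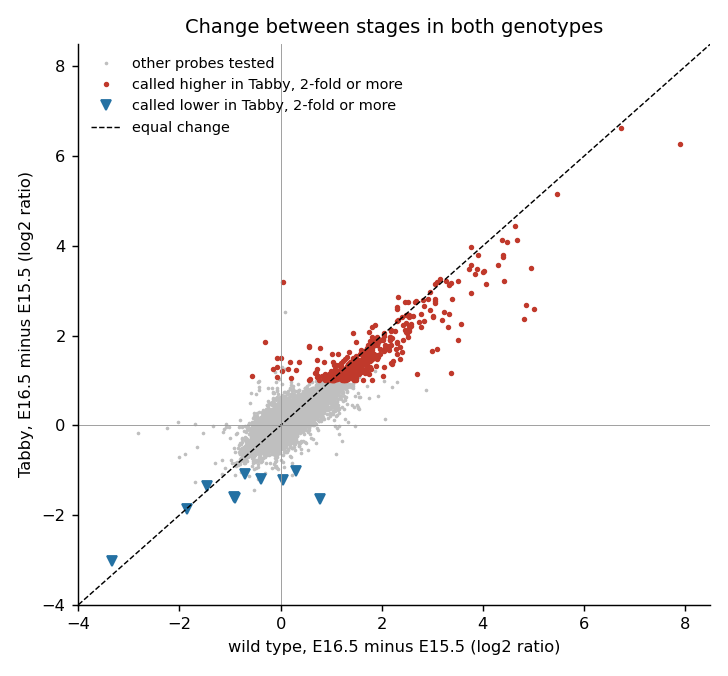
Change between E15.5 and E16.5 as a difference of log2 ratios in Tabby (vertical axis) against wild type (horizontal axis); each point is 1 probe, with the 452 Tabby risers of 2-fold or more in red, the 10 fallers as blue triangles, other probes in grey and equal change dashed. Most risers lie near the line, the steepest mostly below it, and 14 risers have a wild-type change under 0.5.

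No probe passed the test of a different change in the 2 genotypes, and the median rise of the Tabby risers was a little smaller in Tabby. The interaction, the Tabby change minus the wild-type change, was called at 0 of 32317 probes (0%) by limma, with a smallest adjusted p of 0.0658 and 1717 probes (5.31%) at an unadjusted p under 0.05. It was below 0 at 16963 probes (52.5%) and at 308 of the 452 Tabby risers (68.1%), where the wild-type median was 1.46 against 1.33. Among the 29 risers of 8-fold or more the medians were 4.00 and 3.49. Choosing probes by their Tabby rise favours a high Tabby value, and choosing by the 591 wild-type risers favours the opposite; there the interaction was below 0 at 502 (84.9%), with medians of 1.17 in Tabby and 1.35 in wild type. An unadjusted p under 0.05 was found at 68 of the 452 (15.0%), of which 49 were negative. The interaction count was sensitive to single arrays: it was 863 without wild-type E15.5 replicate 2, 30 without wild-type E16.5 replicate 2, 8 without Tabby E16.5 replicate 2, 6 without wild-type E16.5 replicate 1 and 1 without Tabby E15.5 replicate 2.

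The probes with the smallest interaction p in each direction are printed here as the nearest to a difference between genotypes, although none passed. With them are Z00077234-1, which shares a run of bases with Z00030412-1, and the pair Z00041156-1 and Z00059773-1. That pair was not among the smallest p. It had the largest mean interaction, in either direction, among sets of probes that share a run and hold a Tabby riser of 2-fold or more. Capitals mark the run shared by the members of a pair.
Z00043843-1: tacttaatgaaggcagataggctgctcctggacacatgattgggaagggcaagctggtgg
Z00076003-1: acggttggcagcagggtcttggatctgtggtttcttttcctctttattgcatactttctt
Z00041156-1: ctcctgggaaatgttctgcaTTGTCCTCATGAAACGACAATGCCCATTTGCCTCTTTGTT
Z00059773-1: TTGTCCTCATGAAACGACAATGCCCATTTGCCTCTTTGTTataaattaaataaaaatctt
Z00076420-1: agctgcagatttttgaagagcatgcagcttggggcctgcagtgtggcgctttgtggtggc
Z00030412-1: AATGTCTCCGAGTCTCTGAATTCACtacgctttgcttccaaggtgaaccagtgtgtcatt
Z00077234-1: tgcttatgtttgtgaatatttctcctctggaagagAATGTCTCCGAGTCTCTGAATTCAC

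In 1 direction the Tabby rise was the smaller one. Z00043843-1 read -0.18 and -0.15 at E15.5, then 1.44 and 1.5 at E16.5 in Tabby, a rise of 1.63 (SE 0.0496, limma adjusted p = 7.77e-07). Wild type went from -0.10 and -0.15 to 2.31 and 2.25, a rise of 2.41, and the rises differed by -0.78 (limma adjusted p = 0.0658, not passed). Z00076003-1 rose from -0.22 and -0.15 to 0.48 and 0.44 in Tabby and by 1.92 in wild type, a difference of -1.28 (limma adjusted p = 0.0899, not passed). At both probes the E16.5 Tabby arrays lay below both wild-type arrays, while at E15.5 the genotypes were close. The choice of both probes by their interaction p favours such a gap. Of the 5 probes with the smallest p in this direction, Z00060172-1 did not keep its sign: its interaction was -0.81, but 0.43 with processed signals, and 0.38 with the scanner software's ratio and with the authors' values. The pair Z00041156-1 and Z00059773-1, which share 40 bases and are not separate measurements, rose by 2.69 and 2.60 in Tabby and by 4.85 and 5.00 in wild type. The E16.5 Tabby arrays read 0.32 and 1.37 at the first and 0.31 and 1.47 at the second, against 3.56 and 3.10, and 3.97 and 3.27, in wild type. The pair was chosen for its large difference between genotypes, so a wide gap follows from the choice. The Tabby replicates were uneven, and the differences of -2.17 and -2.40 did not pass (limma adjusted p = 0.692 and 0.801).

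In the other direction the Tabby change was the higher one. Z00076420-1 read -2.36 and -2.32 at E15.5, then -1.64 and -1.61 at E16.5 in Tabby. It rose by 0.71 (SE 0.118, limma adjusted p = 0.00711), while in wild type it changed by -0.49 (limma adjusted p = 0.0284), and the interaction of 1.20 did not pass (limma adjusted p = 0.34). Z00030412-1 read -2.98 and -2.85 at E15.5, then -1.74 and -1.89 at E16.5, a rise of 1.1 (SE 0.188, limma adjusted p = 0.00776). Its wild-type change was -0.57 (limma adjusted p = 0.0785, not passed), and the interaction of 1.67 did not pass (limma adjusted p = 0.443). The probe Z00077234-1 shares 25 bases with it and gave 0.96 in Tabby and -0.44 in wild type (the latter not passed, limma adjusted p = 0.127), so the 2 are not separate measurements. At E15.5 the Tabby level lay below wild type (-2.92 against -1.63 for Z00030412-1), and at E16.5 above it (-1.82 against -2.21). Of the 5 probes with the smallest p in this direction, the wild-type change passed at 1, and Z00077093-1 changed by 0.60 in Tabby and 0.04 in wild type. Without the lagging E15.5 Tabby array the Tabby change was no longer called at 4 of the 5, among them Z00076420-1 (0.73, limma adjusted p = 0.0532) and Z00030412-1 (1.17, limma adjusted p = 0.0502).

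**Figure D5:**
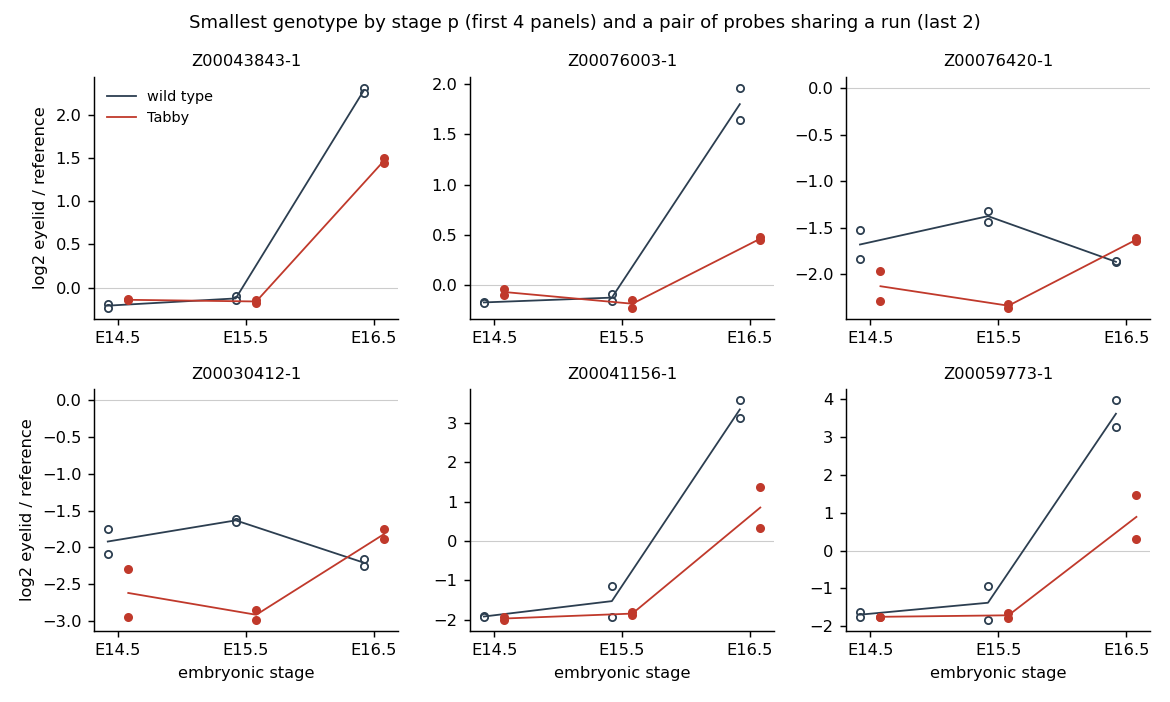
Log2 ratio of eyelid over reference (vertical axis) by embryonic stage (horizontal axis) at 6 probes; each point is 1 array, open for wild type and filled for Tabby, and lines join means of 2 arrays. Z00043843-1, Z00076003-1 and the pair Z00041156-1 and Z00059773-1 are lower in Tabby at E16.5, while Z00076420-1 and Z00030412-1 are lower in Tabby at E15.5, with wild-type changes of -0.49 and -0.57 after it.

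The 19 Tabby risers that were not called in wild type formed a group singled out after the values were seen. Their median change was 1.30 in Tabby and 0.14 in wild type, and 14 had a wild-type change under 0.5. All 19 stood lower in Tabby than in wild type at E15.5, against 46.3% of all probes, with medians of -0.83 and -0.10. At E16.5 the wild-type arrays disagreed at these probes: replicate 1 read below replicate 2 in 16 of 19, by more than 0.5 in 13, against 1.02% of all probes, with medians of -0.43 and 0.34. The choice of the 19 favours a low Tabby and a high wild-type level at E15.5, and uneven wild-type arrays. These contrasts are therefore descriptions only. The largest of them was Z00005843-1, with the sequence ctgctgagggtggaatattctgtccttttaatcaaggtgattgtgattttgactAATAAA. It read -3.25 and -3.0 at E15.5, then 0.49 and -0.36 at E16.5 in Tabby, a rise of 3.19 (SE 0.669, limma adjusted p = 0.0169). In wild type it read -1.68 and -1.06 at E15.5, then -2.50 and -0.13 at E16.5, so the wild-type E16.5 pair spanned over 2 log2 units. Its interaction of 3.14 did not pass (limma adjusted p = 0.907), as held for all 19. The Tabby rise of Z00005843-1 was 3.32 without the lagging E15.5 Tabby array and 3.07 without the other E15.5 Tabby array. Each of these fits leaves a single E15.5 Tabby array, so the sizes do not show how certain the rise is.

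Probes that share bases were compared in their change, since they may read the same transcript or related ones. Of the tested probes 1927 share a run of at least 20 bases with another, in 884 groups (6.0% of all probes and 11.1% of the 452 risers). The 28 groups that held a riser of 2-fold or more had 59 probes, 50 of them such risers. Of the 59 probes 58 were called higher, against 8.01% of all probes. The groups were chosen for holding such a riser, so these counts follow in part from the choice. The probes of a group differed by a median of 0.13 in their log2 change and by less than 0.5 in 24 of the 28, with 1.37 as the widest. How many separate transcripts the 452 risers stand for was not tested. The 2 groups of 3 probes with the highest mean change are printed here as examples. Capitals mark the run of 26 bases, and then of 28, that each trio shares. In the second trio Z00026084-1 and Z00026043-1 differ in bases after the run, so they do not read 1 identical stretch.
Z00075199-1: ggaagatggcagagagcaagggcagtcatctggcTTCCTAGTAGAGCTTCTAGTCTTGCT
Z00023905-1: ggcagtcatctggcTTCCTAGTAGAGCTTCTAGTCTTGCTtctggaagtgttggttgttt
Z00057869-1: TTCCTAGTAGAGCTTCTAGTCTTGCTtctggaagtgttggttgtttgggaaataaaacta
Z00026084-1: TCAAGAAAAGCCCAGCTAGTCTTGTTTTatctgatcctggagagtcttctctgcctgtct
Z00026043-1: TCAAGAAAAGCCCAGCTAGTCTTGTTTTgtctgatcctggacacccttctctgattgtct
Z00060172-1: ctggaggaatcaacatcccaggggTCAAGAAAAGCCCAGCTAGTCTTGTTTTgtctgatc
The first trio tiles 1 stretch. Z00075199-1 read 1.42 and 0.46 at E15.5, then 4.56 and 5.25 at E16.5, a rise of 3.97 (SE 0.33, limma adjusted p = 3.59e-04), and the other two rose by 2.75 and 2.60. All 3 showed the same lag of the second E15.5 array. Their wild-type rises were 3.76, 2.53 and 2.3, no larger than in Tabby. The reference channel rose by 0.23 at Z00075199-1 and by 1.68 and 1.90 at the other two, which had the smaller ratio changes but nearly equal eyelid channel changes (4.28, 4.30 and 4.30). Z00026084-1 read 0.03 and -0.04 at E15.5, then 3.31 and 3.57 at E16.5, a rise of 3.45 (SE 0.111, limma adjusted p = 1.15e-06). The other two rose by 2.48 and 2.95, and the wild-type rises were 4.02, 3.34 and 3.76. The size of the rise of Z00060172-1 is uncertain, as it was above background on only 1 of the 2 E15.5 Tabby arrays. None of the interactions of the 3 passed (limma adjusted p between 0.326 and 0.907).

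The base composition of the risers was that of the array. The median GC content was 45.0% over all probes, the 452 risers and the 85 of 4-fold or more. The hexamer AATAAA, counted on the printed strand, was found in 7.34% of all tested probes, 10.4% of the 452 risers, 14 of the 85 and 10.3% of the 1881 probes that fell. On the opposite strand the shares were 3.09%, 2.21%, 2.35% and 2.87%. A match is a description of the probe, and no test was made of these shares.

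Few probes could be placed on the genome. RefSeq windows of the GRCm38.p6 build, reaching from 250 bases before to 50 after a gene's start, held all 60 bases of 214 tested probes, and 19 probes so placed or placed in a miRNA hairpin were called, against 13.8% of all probes, 4 of them by 2-fold or more. Another riser, Z00066495-1, matched a window with its leading 45 bases, which are in capitals. A place in such a window is a position and does not tie the probe to the gene, and whether the sequence occurs elsewhere in the genome was not examined.
Z00067181-1: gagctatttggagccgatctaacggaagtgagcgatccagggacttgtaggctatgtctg
Z00067713-1: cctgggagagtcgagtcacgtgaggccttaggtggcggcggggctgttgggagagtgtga
Z00066495-1: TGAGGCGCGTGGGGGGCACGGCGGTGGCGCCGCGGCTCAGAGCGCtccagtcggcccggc
Z00058942-1: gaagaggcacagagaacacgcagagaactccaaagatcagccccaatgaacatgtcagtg
Z00073967-1: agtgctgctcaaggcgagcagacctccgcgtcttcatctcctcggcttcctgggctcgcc
Z00067181-1 lies at chr19:3708108-3708167, before the start of 1810055G02Rik on the opposite strand, and its leading 49 bases fall just inside Gm36608 on the same strand. It read -0.05 and -0.19 at E15.5, then 1.70 and 1.86 at E16.5, a rise of 1.90 (SE 0.113, limma adjusted p = 5.38e-05), with only 1 of the 2 E15.5 arrays above background, so that its size is uncertain. Z00067713-1 lies at chr16:45158742-45158801, between the starts of Atg3, which encodes an enzyme of autophagosome formation and runs on the same strand, and Slc35a5, which runs on the other. It read 1.20 and 0.61 at E15.5, then 2.92 and 2.36 at E16.5, a rise of 1.73 (SE 0.244, limma adjusted p = 0.00373). Z00066495-1 has its leading bases at chr5:124249711-124249755, within the first 50 bases of Pitpnm2, and read 0.36 and -0.04 at E15.5, then 1.76 and 1.43 at E16.5. It rose by 1.44 (SE 0.154, limma adjusted p = 0.00111) and by 1.45 in wild type. Z00058942-1, at chr13:22282309-22282368, spans the start of Gm11295. It read -0.57 and -0.55 at E15.5, then 0.86 and 0.84 at E16.5, a rise of 1.41 (SE 0.222, limma adjusted p = 0.00572), and is 1 of the 19 not called in wild type (0.18). Z00073967-1, at chr1:156035836-156035895, lies before the start of Tor1aip2, which encodes a torsin-binding protein of the endoplasmic reticulum. It read 1.86 and 1.45 at E15.5, then 2.83 and 2.95 at E16.5, a rise of 1.23 (SE 0.185, limma adjusted p = 0.00475). The 5 placed probes were chosen as called risers of 2-fold or more. All 452 such risers read higher on both E16.5 arrays than on both E15.5 arrays, so nothing is read from that separation. At 4 of the 5 the lagging E15.5 array read the lower of the pair, against 92.9% of the 452 risers.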

How the data were processed

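Per the file headers, version 9.5.1.1 of Agilent's Feature Extraction gave the intensity of each spot in both channels, processed signals and a log10 ratio of red over green. The authors deposited a value table of 41999 rows on a log10 scale, for which the sources state neither scale nor centring nor direction. Its columns correlated at r = 1 with the log10 green signal less the deviation of log10 red from each probe's mean, with column medians of 2.33 to 2.35; it served as an alternative. From the deposited intensity values, log2 ratios of eyelid over reference were computed with limma 3.58.1 in R 4.3.3 (normexp, offset 50, then loess within arrays, with the 1417 control spots at weight 0 and then left out with outlier flags; 7 probes with 5 spots each were averaged). The offset draws ratios of dim spots towards 0. A mean for each of 6 groups was fitted with lmFit and eBayes (6 residual degrees of freedom), 2-sided, and p-values were adjusted by Benjamini-Hochberg over 32317 probes; 1 probe without a value was dropped. The fit was tried on simulated data with independent noise around 1 mean per probe, in which 200 probes were changed in E16.5 Tabby only. For the Tabby change it recovered 89% of 2-fold and 77% of 1.5-fold changes. For the interaction it recovered 78% and 38%. The simulation held no slide difference and no lagging replicate, so it does not test the fit against these. Stage progress is a projection with no test. Precision is limited by having 2 arrays in each group.

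Probes were named by a rule: the 10 highest and lowest differences among called probes above background on all 4 arrays and not overlapping, the 5 largest bounds in each direction, and the 5 smallest interaction p values in each direction, with full values for at most 2 of each; probes sharing runs or placed on windows were added after the data were seen. The members and lists were chosen with earlier results of these data known. As 0 probes have a gene symbol, the planned gene lists and cell type markers could not be used. Alternatives are given in the closing section.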

Additional observations from a re-analysis of the deposited data

How the results depend on the processing

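Of 1450 values of single probes under 24 settings beside the one reported, 1339 kept their direction and side of the threshold, 87 lost the call, 21 passed it and 3 changed sign: the interaction of Z00060172-1 was 0.43 from processed signals, 0.38 from the scanner ratio and 0.38 from the deposited value table. Tabby E16.5 minus E15.5 gave, with median centring, 401 probes higher and 57 lower (232 higher by 2-fold or more); with scaling between arrays, 1300 and 417; with the eyelid channel alone, 3017 lower, 842 higher and 106 lower by 2-fold or more; with only the 4 arrays compared, 483 lower. Falls of 2-fold or more numbered 63 from processed signals, 70 from the scanner ratio and 70 from the deposited table. Leaving out each array in turn gave 792 to 3125 higher, 193 to 2113 lower, 231 to 566 higher and 8 to 22 lower by 2-fold or more. Wild-type E16.5 minus E15.5 gave, higher and lower, 777 and 28 with median centring, 1833 and 1066 with scaling, 278 and 7 with only its arrays and 1800 and 513 with array weights, and 3074, 2570 and 3073 lower from the scanner ratio, the eyelid channel and the deposited table; with an array left out, 1453 to 3893 higher and 550 to 2620 lower. The interaction was called at 2 probes with only the arrays compared and at 0 to 863 with an array left out. Tabby E15.5 minus E14.5 gave 636 and 62 with median centring and 1386 and 541 with scaling, and, lower, 2684 from the scanner ratio, 2684 from the deposited table, 1058 with an offset of 16, 1040 with only its arrays and 2797 with array weights; with an array left out, 799 to 2928 higher and 103 to 1980 lower. Stage progress with an array left out ran from 0.422 to 0.593 for E15.5 Tabby and from 0.89 to 0.957 for E16.5 Tabby, and the gap between the E15.5 Tabby replicates from 0.167 to 0.172. Fewer arrays in a fit leave fewer degrees of freedom; the cause of the other shifts was not tested.

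With the replicate number as a block, 2485 probes were higher and 1800 lower, and 3998 of the 4468 calls were shared. The numbers were not taken to pair the arrays: same-numbered deviations correlated at 0.237 between E15.5 and E16.5 Tabby, 0.0634 between E14.5 and E15.5 Tabby and -0.067 between the wild-type pairs. Slide as a block could not be fitted, since slide and stage coincide, and the alternatives for gene lists were not run because no probe has a symbol. Signal over background limits the size of changes at the 164 probes that came above background only at E16.5.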

Other observations

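Not all falling probes had been declining before E15.5. Z00074879-1 and Z00023644-1, chosen here after their values were seen, read nearly alike: 0.52 and 0.56, and 0.52 and 0.54, on the E15.5 Tabby arrays, against -1.09 and -1.05, and -1.10 and -1.03, at E16.5. They share no run of 10 or more bases. Their Tabby level at E14.5 was 0.64 at both, so they held their level until E15.5. In wild type they stood at -0.08 and -0.05 at E15.5 and changed by -0.90 and -0.93. The wild-type E16.5 arrays were uneven there, at -0.35 and -1.61, and at -0.24 and -1.72. The falls of -1.61 and -1.59 in Tabby were called (limma adjusted p = 0.0126 and 0.0235). Their sizes were -1.59 and -1.58 without the lagging E15.5 Tabby array. Both calls were lost without the lagging E15.5 Tabby array, replicate 2 (limma adjusted p = 0.0896 and 0.134), and that of Z00023644-1 also without replicate 1 (limma adjusted p = 0.075). The difference between genotypes was not shown (limma adjusted p of 0.481 or more over the 10 fallers).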
